A study of Mus musculus with 4 samples.

Results

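Def8, Gm48619, Slco1a5, Vmn2r78, Gmnn and Gm7967 are 6 of the 32285 genes counted in single-nucleus RNA libraries of mouse cortex. They were listed by symbol because earlier results of these same libraries showed them higher in Setdb1-CK-cKO astrocytes than in Wildtype astrocytes, and less so in other cell classes. That difference is therefore how they were chosen, and their values by genotype and class are given below as a description, with no test. The libraries came from C57BL/6 mice of 5 months: 2 Setdb1-CK-cKO animals and 2 Wildtype animals, with 1 10x 3′ library each, made from nuclei that were isolated on a sucrose gradient. Setdb1 encodes a methyltransferase of lysine 9 on histone H3, a mark of silent chromatin. The labels call the mutant a conditional knockout only through its name, and give neither the deleted exon nor the promoter or cell type in which deletion takes place, so which cells lost the gene is not known from them.

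The libraries held 38314394 to 45605971 UMIs (unique molecular identifiers, each 1 captured RNA molecule). After filtering, 11176 and 13268 Setdb1-CK-cKO nuclei and 13882 and 13712 Wildtype nuclei remained, and 45397 of the 52038 fell in 10 classes named from marker genes. Setdb1 itself measured 47.0 and 46.2 CPM (counts scaled to the library total) in Setdb1-CK-cKO astrocytes and 44.5 and 30.4 CPM in Wildtype astrocytes, which does not check the deletion, since 3′ tags outside a deleted part remain. The sex-linked RNAs went against the listed sex of both Setdb1-CK-cKO animals: Xist measured 0.961 and 1384 CPM in Setdb1-CK-cKO replicates 1 and 2, against 1.80 and 1025 CPM in Wildtype replicates 1 and 2, and Y-linked Uty 82.6 and 0.0261 CPM against 89.3 and 0.117 CPM. Each genotype still held 1 library of either pattern. None of the 6 genes is on a sex chromosome, and each value below is given per library so that it can be read with or without either animal. Libraries shared 48 to 64 cell barcodes in any pair, at most 0.483% of the smaller library.

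Astrocytes clear glutamate, buffer potassium and supply neurons. The 6 genes have no common role in textbook accounts. Def8 encodes a protein that binds the lysosomal adaptor Plekhm1 and takes part in lysosome positioning in bone-resorbing cells. Slco1a5 encodes an organic anion transporting polypeptide that carries organic anions such as bile salts. Vmn2r78 belongs to the type 2 vomeronasal receptors, which detect pheromones in the sensory neurons of the vomeronasal organ. Gmnn encodes geminin, which binds the licensing factor Cdt1 and so keeps DNA from being replicated again in the same cell cycle. Gm48619 and Gm7967 are long intergenic noncoding RNAs by annotation, with no role known here.

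The genes are on separate chromosomes in GENCODE vM21 (GRCm38). Def8 spans chr8:123423527-123463270 on the plus strand, Gm48619 chr12:6699753-6803300 (plus), Slco1a5 chr6:142234227-142322981 (minus), Vmn2r78 chr7:86915094-86955312 (plus), Gmnn chr13:24751845-24761923 (minus) and Gm7967 chr1:98589517-98607384 (plus). Slco1a5 overlaps Iapp, the gene of islet amyloid polypeptide, over 5539 bases on the opposite strand. Since the sources used here do not say whether counting used strand, reads of the overlap cannot be assigned with certainty. Iapp itself measured 4.003 and 1.05 CPM in Setdb1-CK-cKO astrocytes and was at 0 UMIs in both Wildtype libraries. Def8 lies within Gm20388, a longer same-strand model that the count tables do not list. Vmn2r78 has a near copy, Vmn2r79, identical at 95.2% of 2940 aligned transcript bases, the 3′ end included, so reads of Vmn2r78 are uncertain where the 2 genes agree. Vmn2r79 had 1 UMI in Setdb1-CK-cKO replicate 1 astrocytes and 0 in each of the other libraries. Def8 holds a stretch of 134 bases near its 3′ end that is 95.5% identical to part of Wdr33, and it also matched Racgap1 near that end. Gm7967 is 95.5% identical to Gm47759 over 1660 bases, and Gm48619 matched 4 other genes, over at most 107 bases. The matches of Gm7967 and Gm48619 did not reach the last 500 bases of their transcripts.

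Start regions of the genes are shown because RNAs of several of them appeared together in the same nuclei, and they let a reader compare these listed regions directly. Which start gave the RNA counted here is not known, since 3′ tags do not show it. RefSeq's table on GRCm38.p6 gives start regions for 4 of the 6 genes, Gmnn and Gm48619 having no entry, and each is 300 bases long and includes the start. Capitals mark CpG, the dinucleotide at which DNA can be methylated. The lines give chr8:123442706-123443005 (plus strand) for Def8, chr6:142322932-142323231 (minus) for Slco1a5, chr7:86915099-86915398 (plus) for Vmn2r78 and chr1:98589267-98589566 (plus) for Gm7967.
Def8: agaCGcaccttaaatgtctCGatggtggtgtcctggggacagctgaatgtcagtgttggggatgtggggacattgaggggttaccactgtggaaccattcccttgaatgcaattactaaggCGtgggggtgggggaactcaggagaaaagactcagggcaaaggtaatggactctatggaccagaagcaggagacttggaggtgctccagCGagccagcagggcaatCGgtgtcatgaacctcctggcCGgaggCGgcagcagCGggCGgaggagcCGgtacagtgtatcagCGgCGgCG
Slco1a5: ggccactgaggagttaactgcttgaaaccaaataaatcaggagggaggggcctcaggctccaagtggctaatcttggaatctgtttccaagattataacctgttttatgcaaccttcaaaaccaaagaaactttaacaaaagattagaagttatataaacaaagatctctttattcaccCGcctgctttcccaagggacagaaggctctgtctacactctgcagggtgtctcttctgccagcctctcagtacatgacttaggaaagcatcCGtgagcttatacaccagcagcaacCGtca
Vmn2r78: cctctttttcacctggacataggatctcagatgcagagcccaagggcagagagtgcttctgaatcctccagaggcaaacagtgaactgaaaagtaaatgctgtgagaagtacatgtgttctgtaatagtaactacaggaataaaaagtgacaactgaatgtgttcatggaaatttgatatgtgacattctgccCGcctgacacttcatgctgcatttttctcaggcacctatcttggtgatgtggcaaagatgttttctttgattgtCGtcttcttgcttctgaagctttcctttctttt
Gm7967: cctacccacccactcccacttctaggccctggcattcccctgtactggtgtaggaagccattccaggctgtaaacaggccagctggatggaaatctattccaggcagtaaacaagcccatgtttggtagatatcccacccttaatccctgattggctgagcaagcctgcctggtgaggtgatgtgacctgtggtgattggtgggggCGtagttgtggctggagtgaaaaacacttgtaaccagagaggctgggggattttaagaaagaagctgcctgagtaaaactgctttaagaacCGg
The 4 regions differ in CpG content. The Def8 region held 13 CpG, and 37.9% of the 32851 start regions in the table held as many or more. The Slco1a5 region held 3 CpG (76.7% held as many or more), and those of Vmn2r78 and Gm7967 held 2 each (85.9%), against a median of 7. Def8 and Slco1a5 each have another listed start region, with 19 and 2 CpG, and in GENCODE they have 9 and 4 distinct starts. The Def8 and Vmn2r78 regions shown begin inside the gene spans given above. The Vmn2r78 region aligned to start regions of 2 other genes, best over 301 bases at 93.4% identity, and the Gm7967 region to those of 3 other genes, best over 262 bases at 83.2%. Neither DNA methylation nor histone marks were analysed here.

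Astrocytes formed 1 cluster of 661 and 793 nuclei in the Setdb1-CK-cKO libraries and 1030 and 988 nuclei in the Wildtype libraries, with median depths of 1491 and 1182 UMIs and of 1490 and 1304.5 UMIs. All 10 astrocyte markers were detected in each library, among them the glutamate transporter Slc1a2 at 6365 and 5691 CPM in Setdb1-CK-cKO nuclei and 6824 and 6512 CPM in Wildtype nuclei. The 6 genes were left out of the genes used for clustering. Levels are CPM of UMIs summed over the nuclei of a class and library and scaled with TMM factors, and are not adjusted for gene length, so they are compared between samples and not between genes. Fold changes are log2 values, Setdb1-CK-cKO over Wildtype, ± the standard error of an edgeR quasi-likelihood fit over all 11637 genes tested in astrocytes (n = 2 animals per genotype).

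Def8 measured 839 and 815 CPM in Setdb1-CK-cKO astrocytes, against 16.8 and 17.1 CPM in Wildtype astrocytes. The libraries of a genotype lay close together and did not overlap with those of the other (log2 fold change 5.60 ± 0.19). Gm48619 measured 592 and 862 CPM in Setdb1-CK-cKO astrocytes, against 11.6 and 8.90 CPM in Wildtype astrocytes (6.12 ± 0.24). Setdb1-CK-cKO replicate 2 was the higher library for Gm48619, and, as the next genes show, for the other members except Def8 too.

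Slco1a5, the transporter gene, had 78 and 134 UMIs in Setdb1-CK-cKO astrocytes (78.1 and 141 CPM) and 1 UMI in each Wildtype library (0.645 and 0.742 CPM). The ratio of the summed levels was 157, with a 95% counting interval of 43.0 to 1308. Vmn2r78, the vomeronasal receptor gene, had 43 and 78 UMIs in Setdb1-CK-cKO astrocytes (43.0 and 81.8 CPM) and 0 UMIs in both Wildtype libraries. Set against a floor of 3 UMIs over the Wildtype libraries together, Vmn2r78 was 59.9-fold higher in Setdb1-CK-cKO astrocytes. This fold takes the Setdb1-CK-cKO counts without their counting error. The 95% counting interval of the ratio, as used for Slco1a5, starts at 48.0. The fold over the floor was 27.6 without Wildtype replicate 1 and 31.9 without Wildtype replicate 2. It was 24.1 without nuclei holding RNA of other classes. In each of these the same floor is set against fewer nuclei. Both genes were thus near or at the limit of detection in Wildtype astrocytes.

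Gmnn, the geminin gene, had 29 and 47 UMIs in Setdb1-CK-cKO astrocytes (29.0 and 49.3 CPM) and 4 UMIs in each Wildtype library (2.58 and 2.97 CPM), a log2 fold change of 3.77 ± 0.44. Gm7967 measured 78.1 and 116 CPM in Setdb1-CK-cKO astrocytes, against 29.0 and 23.0 CPM in Wildtype astrocytes (1.89 ± 0.24). It was the only one of the 6 with more than 20 CPM in both Wildtype libraries, and had the smallest fold difference. For each of the 6 genes both Setdb1-CK-cKO libraries lay above both Wildtype libraries, as did 22.4% of all genes tested in astrocytes. At an edgeR adjusted p under 0.05, 110 genes were higher in Setdb1-CK-cKO astrocytes (0.945% of those tested) and 64 lower (0.55%), and since the listed genes were chosen from this contrast their own place among these calls is not read as a result.

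**Figure D1:**
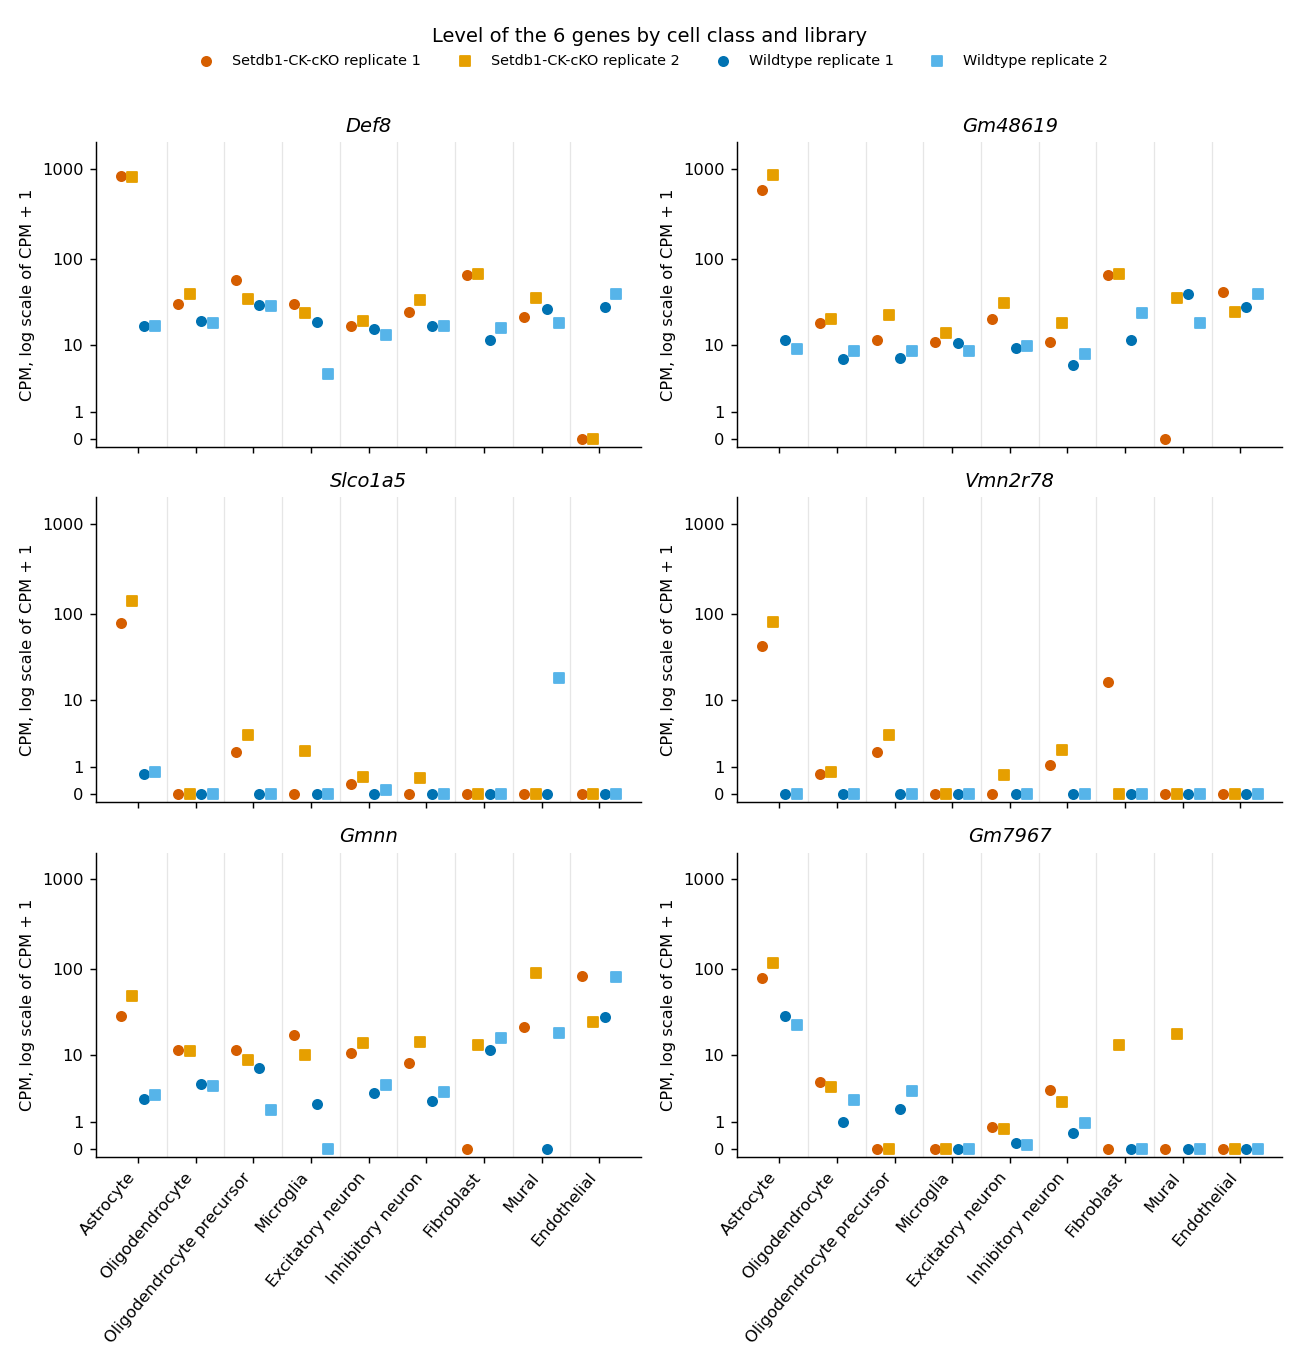
Level of each gene (CPM, drawn as CPM + 1 on a log axis) in 9 cell classes, with 1 point per library and Setdb1-CK-cKO libraries (oranges) left of Wildtype libraries (blues). In astrocytes Def8 sits at 839 and 815 CPM in Setdb1-CK-cKO libraries, against 16.8 and 17.1 CPM in Wildtype libraries; in endothelial, mural and fibroblast nuclei a point can rest on 1 UMI.

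RNA of these genes was found in a minority of Setdb1-CK-cKO astrocyte nuclei. Def8 was detected in 204 of 661 and 310 of 793 Setdb1-CK-cKO nuclei, or 30.9% (exact 95% interval 27.4 to 34.5%) and 39.1% (35.7 to 42.6%), against 26 of 1030 and 23 of 988 Wildtype nuclei, or 2.52% and 2.33%. Gm48619 was detected in 25.4% and 34.9% of Setdb1-CK-cKO nuclei, against 1.75% and 1.21% of Wildtype nuclei. Intervals here cover counting error only, since nuclei of 1 animal are not replicates. The shares differed between the 2 Setdb1-CK-cKO libraries by more than counting error for Def8 and for Gm48619, whose intervals, 22.1 to 28.9% and 31.6 to 38.4%, did not overlap either.

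Slco1a5 was detected in 8.17% and 12.2% of Setdb1-CK-cKO astrocyte nuclei, against 0.0971% and 0.101% of Wildtype nuclei. Vmn2r78 was detected in 5.75% and 7.69% of Setdb1-CK-cKO nuclei and in 0 of 1030 and 0 of 988 Wildtype nuclei, which, at a limit of 3 nuclei of the total, allows shares of nuclei with a UMI of up to 0.291% and 0.304% (the exact intervals end at 0.358% and 0.373%). Gmnn was detected in 4.24% and 5.67% of Setdb1-CK-cKO nuclei, against 0.388% and 0.405% of Wildtype nuclei. Gm7967 was detected in 9.08% and 11.1% of Setdb1-CK-cKO nuclei, against 3.98% and 3.04% of Wildtype nuclei. All 6 genes thus had a larger share in each Setdb1-CK-cKO library than in either Wildtype library, and every share was larger in Setdb1-CK-cKO replicate 2 than in replicate 1.

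**Figure D2:**
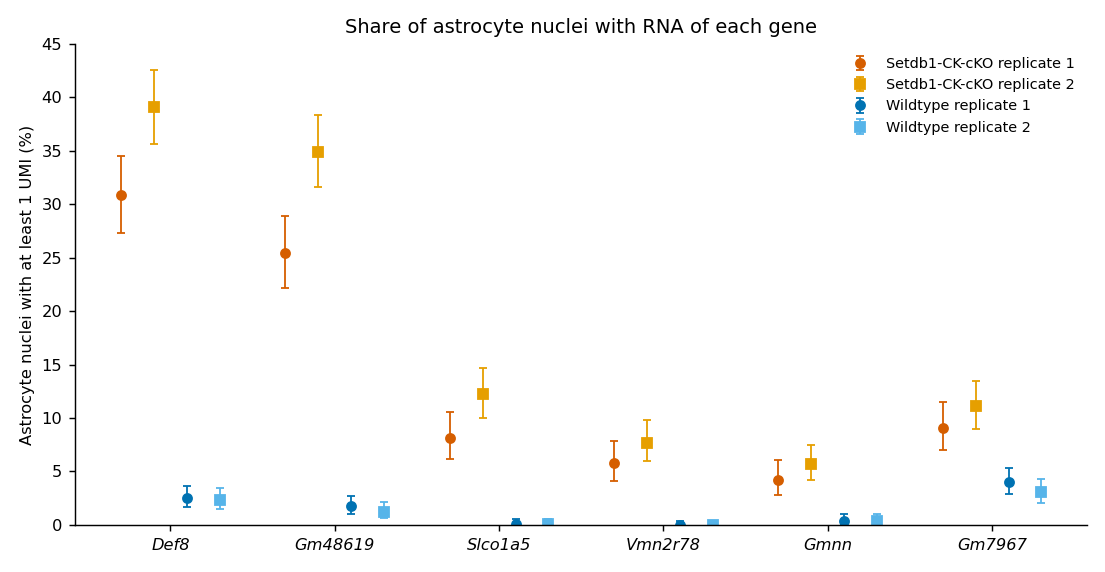
Percent of astrocyte nuclei with at least 1 UMI of each gene, by library, with exact 95% intervals for counting error; Setdb1-CK-cKO libraries stand left of Wildtype libraries. Def8 reaches 30.9% and 39.1% of Setdb1-CK-cKO nuclei, and 2.52% and 2.33% of Wildtype nuclei.

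Positive nuclei of the 2 genotypes also differed in how much Def8 RNA they held. A Def8-positive nucleus had on average 4.11 and 2.51 Def8 UMIs in the Setdb1-CK-cKO libraries, with maxima of 23 and 7, whereas each of the 26 and 23 positive Wildtype nuclei had 1 UMI. The 2 Setdb1-CK-cKO libraries reached like levels by different routes: 48 nuclei of replicate 1 had 6 or more Def8 UMIs and 31 had 1, while 14 nuclei of replicate 2 had 6 or more and 111 had 1. Gm48619 had 3.52 and 2.97 UMIs per positive Setdb1-CK-cKO nucleus, with maxima of 11 and 15, and 1 in each positive Wildtype nucleus. Slco1a5 (1.44 and 1.38), Vmn2r78 (1.13 and 1.28), Gm7967 (1.30 and 1.26) and Gmnn (1.04 in both) stayed near 1 UMI per positive Setdb1-CK-cKO nucleus.

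Shares in oligodendrocytes of the same libraries are given for 2 genes that they hardly contain. At median depths of 1042 and 881.5 UMIs, Slco1a5 was detected in 0 of 1395 and 0 of 1376 Setdb1-CK-cKO oligodendrocyte nuclei, which by the same limit allows up to 0.215% and 0.218% (exact intervals end at 0.264% and 0.268%), and Vmn2r78 in 0.0717% and 0.0727%. The Setdb1-CK-cKO astrocyte shares of both genes lay above these. The genes were picked for being higher in astrocytes than in other classes, and the oligodendrocyte nuclei were shallower. Nothing is therefore read from this difference, and the part of background RNA in the astrocyte values was not tested. With every nucleus thinned to 1000 UMIs (48 and 238 shallower Setdb1-CK-cKO astrocyte nuclei and 83 and 153 Wildtype ones left out), Def8 was in 28.5% and 39.1% of Setdb1-CK-cKO astrocytes, against 1.48% and 1.68% of Wildtype astrocytes. Thinned Def8 shares in Setdb1-CK-cKO oligodendrocytes were 3.18% and 3.23%, and in Setdb1-CK-cKO excitatory neurons 1.70% and 1.91%.

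RNA of several of the 6 genes was often found in the same Setdb1-CK-cKO nuclei, though not for every pair, as given below. The genes were chosen as higher in Setdb1-CK-cKO astrocytes, so nothing is read from the difference between genotypes in these counts. RNA of at least 2 of them was found in 179 of 661 and 285 of 793 Setdb1-CK-cKO astrocyte nuclei (27.1% and 35.9%), against 2 of 1030 and 1 of 988 Wildtype nuclei (0.194% and 0.101%). At the other end, 413 (62.5%) and 389 (49.1%) Setdb1-CK-cKO nuclei had RNA of none, against 942 (91.5%) and 919 (93.0%) Wildtype nuclei. Nuclei with exactly 1 of the genes numbered 69 and 119 in Setdb1-CK-cKO libraries, fewer than those with several, and 86 and 68 in Wildtype libraries. RNA of 5 of the genes was found in 3 and 7 Setdb1-CK-cKO nuclei, and of all 6 in 0.

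**Figure D3:**
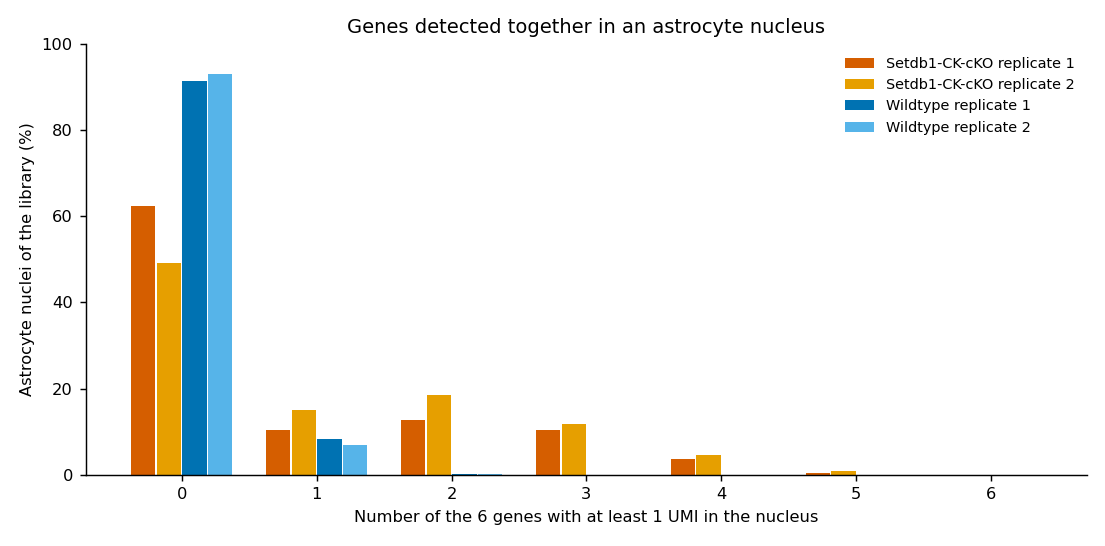
Percent of the astrocyte nuclei of a library (bars) by how many of the 6 genes had at least 1 UMI in the nucleus, with Setdb1-CK-cKO libraries left of Wildtype libraries. At least 2 genes were found in 27.1% and 35.9% of Setdb1-CK-cKO nuclei, and in 0.194% and 0.101% of Wildtype nuclei.

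To describe pairs, the number of nuclei with both genes was set against the number expected if the 2 were independent among nuclei of like depth, within 5 groups of UMI depth in a library. Def8 and Gm48619 were found together in 153 nuclei of Setdb1-CK-cKO replicate 1, where 54.1 were expected, and in 219 nuclei of replicate 2, where 113 were expected. In other words, 75.0% and 70.6% of Def8-positive nuclei also had Gm48619, against 3.28% and 12.01% of Def8-negative nuclei of the same libraries. Vmn2r78 was mostly within the Def8-positive nuclei, with 37 of its 38 positive nuclei in replicate 1 and 50 of 61 in replicate 2. Of Slco1a5-positive nuclei, 87.0% and 83.5% had Def8. In Wildtype astrocytes Def8 and Gm48619 were together in 0 nuclei of either library.

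Over the 15 pairs, the observed number exceeded the expected one in both Setdb1-CK-cKO libraries for 14, and was more than 1.5 times as large in both for 13. The median ratio was 2.21 in replicate 1 and 1.81 in replicate 2. Without thinning, both exceptions to the 13 involved Gmnn. Vmn2r78 and Gmnn were together in 1 nucleus of replicate 1 and 5 of replicate 2 (ratios 0.52 and 1.24), and Gmnn and Gm7967 in 3 and 6 (1.01 and 1.02). These 2 pairs rest on few nuclei. With every nucleus thinned to 1000 UMIs, 14 pairs again exceeded the expected number in both libraries, but the exception was then Gmnn and Gm7967 (0 and 1.03), while Vmn2r78 and Gmnn had 1.31 and 1.84, and 12 pairs were more than 1.5 times as large in both. Unthinned, Gmnn did go with Def8, in 19 and 32 nuclei against 9.35 and 19.0 expected. Its median ratio over its 5 pairs, 1.81 and 1.55, was the lowest of the 6 genes in each library, next to 1.95 and 1.73 for Gm7967, while Vmn2r78 had 2.94 and 1.84 and Slco1a5 2.62 and 1.93. The genes share their nuclei and their depth within a library, so the 15 ratios are not independent of each other. Pairs of other genes were not counted in this way. How often any 2 astrocyte genes exceed the expected number is thus not known, and the counts of pairs are not read as particular to the listed genes.

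**Figure D4:**
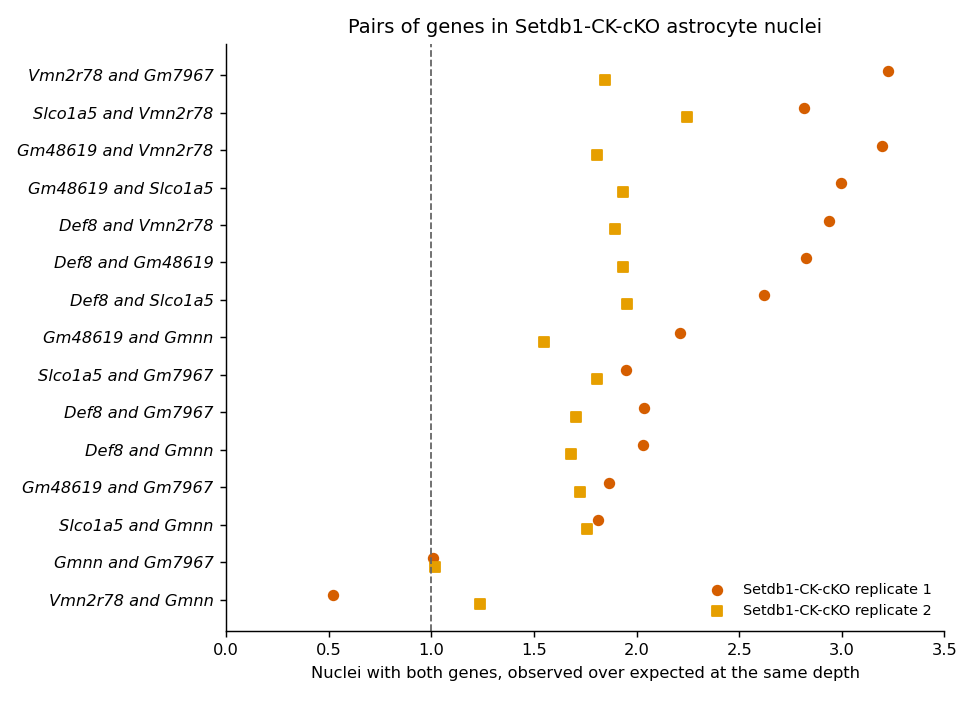
Nuclei with RNA of both genes of a pair, as the observed number over the number expected at the same UMI depth, in astrocytes of Setdb1-CK-cKO replicates 1 (circles) and 2 (squares); the dashed line marks 1. Pairs of Def8, Gm48619, Slco1a5 and Vmn2r78 lie between 1.81 and 3.20, and the 2 lowest pairs both contain Gmnn; nuclei are not thinned here.

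Marker genes of astrocytes and of excitatory neurons were at like summed levels in nuclei with and without RNA of the listed genes. The summed level of the 10 astrocyte markers was 9742 and 8995 CPM in Setdb1-CK-cKO nuclei with at least 2 of the genes, against 10073 and 8883 CPM in Setdb1-CK-cKO nuclei with none, and 10717 and 10208 CPM in Wildtype nuclei with none. Slc1a2 alone made up 6355 and 5731 CPM of the first of these sums, so they say little about the other markers. The 8 excitatory neuron markers summed to 1259 and 1571 CPM in nuclei with at least 2 of the genes, against 1263 and 1569 CPM in Setdb1-CK-cKO nuclei with none. Oligodendrocyte markers summed to 284 and 284 CPM against 322 and 300 CPM, and microglial markers to 147 and 185 CPM against 181 and 208 CPM. Nuclei with at least 2 of the genes were somewhat deeper, with median depths of 1586 and 1278 UMIs, against 1443 and 1113 UMIs for Setdb1-CK-cKO nuclei with none.

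Single astrocyte genes differed more between these groups of nuclei. Slc1a3, another glutamate transporter gene of astrocytes, measured 1297 and 1054 CPM in Setdb1-CK-cKO nuclei with at least 2 of the genes, against 1832 and 1558 CPM in Setdb1-CK-cKO nuclei with none. Slc4a4, a sodium bicarbonate cotransporter gene, measured 1187 and 1253 CPM against 991 and 913 CPM. Genes outside the list that were found more often by the largest margin in nuclei with at least 2 of the genes were led by the predicted gene Gm40578, in 63.7% and 49.1% of them, against 26.4% and 23.4% of Setdb1-CK-cKO nuclei with none. The noncoding RNA Neat1, which builds nuclear paraspeckles, was in 54.7% and 44.6%, against 33.4% and 21.9%. For Gm40578 the Setdb1-CK-cKO nuclei with none of the listed genes, at 235 and 230 CPM, lay near the Wildtype astrocytes at 242 and 265 CPM, while those with at least 2 had 619 and 582 CPM.

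Next in that order were Lgi1, a secreted synaptic protein gene (49.7% and 49.1%, against 30.0% and 30.8%), Vav3 (41.3% and 33.0%, against 24.7% and 15.9%), Gm26672 (37.99% and 34.7%, against 20.6% and 19.0%) and Lrrtm4, a synaptic adhesion gene (41.3% and 40.7%, against 21.3% and 25.2%). Epha5, Gm11884, Kcnd2 and Gm49171 complete the 10. Gm11884 stands out among them by its Wildtype level of 0 CPM in both libraries: it was in 16.2% and 20% of Setdb1-CK-cKO nuclei with at least 2 of the listed genes, at 387 and 480 CPM, against 1.45% and 3.60% of those with none, at 9.71 and 30.6 CPM. Rnf17, a germline Tudor-domain gene, went the same way, at 116 and 112 CPM against 19.4 and 6.57 CPM. Bglap3, an osteocalcin-related gene, did not, at 27.4 and 54.8 CPM against 35.6 and 56.9 CPM, although it too was nearly absent from Wildtype astrocytes (0.645 and 2.22 CPM). The nuclei were grouped by their own counts, so deeper nuclei favour the first group, and no test is given.

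When the listed genes were allowed among the variable genes, 4 of them (Def8, Gm48619, Slco1a5 and Gm7967) were chosen as such and the astrocytes split. A cluster of 617 nuclei then held 29.6% and 42.9% of the Setdb1-CK-cKO astrocyte nuclei, against 1.91% and 3.42% of the Wildtype ones. It held 90.2% and 88.0% of the Def8-positive Setdb1-CK-cKO nuclei. The listed genes define this cluster, and it is a description of the same counts.

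In Wildtype cortex the genes differed in pattern. Def8 RNA was spread over all classes: Wildtype levels were 16.8 and 17.1 CPM in astrocytes, 19.6 and 18.4 CPM in oligodendrocytes, 15.5 and 13.4 CPM in excitatory neurons, 16.8 in both libraries of inhibitory neurons, and 29.6 and 28.9 CPM in oligodendrocyte precursors. Precursors were thus highest of the 5 classes with the most Def8 UMIs, oligodendrocytes next, excitatory neurons lowest, and the ranges of astrocytes and inhibitory neurons overlapped. Over the same 5 classes Gm48619 ran from 5.59 and 7.79 CPM in inhibitory neurons to 11.6 and 8.90 CPM in astrocytes, and the sparse endothelial, mural and fibroblast sums rest on 1 to 3 UMIs each. Inhibitory neurons, oligodendrocytes and their precursors overlapped at the low end, as did excitatory neurons and astrocytes at the high end. Gm7967 was an astrocyte RNA in Wildtype cortex: 29.0 and 23.0 CPM there, against 1.74 and 3.40 CPM in oligodendrocyte precursors, 0.956 and 2.49 CPM in oligodendrocytes, 0.486 and 0.945 CPM in inhibitory neurons, 0.141 and 0.109 CPM in excitatory neurons and 0 UMIs in microglia. Slco1a5 and Vmn2r78 had few or no UMIs in every Wildtype class: Slco1a5 had at most 3 UMIs in any class and library, and Vmn2r78 had 0 in all 9 classes. In Wildtype endothelial, mural and fibroblast nuclei a floor of 3 UMIs per library is 24.0 to 120 CPM, so absence there is not shown. The 1 Slco1a5 UMI in mural nuclei of Wildtype replicate 2 made 18.5 CPM.

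Outside astrocytes, where they could be fitted, the genes were again higher in Setdb1-CK-cKO nuclei. Of 48 combinations of a gene and another class, 12 had enough UMIs to be fitted, and in all 12 both Setdb1-CK-cKO libraries lay above both Wildtype libraries. Among all genes tested this was so for 26.6% in excitatory neurons, 22.7% in inhibitory neurons, 21.0% in oligodendrocytes, 20.5% in microglia and 18.0% in oligodendrocyte precursors. The filter on low counts asks for enough UMIs in only 2 libraries, so a combination can enter through its Setdb1-CK-cKO libraries alone. Gm7967 in excitatory neurons, for example, was fitted on 18 and 16 Setdb1-CK-cKO UMIs and 4 and 3 Wildtype UMIs. The genes were also picked with these classes in view, so nothing is read from the comparison of these counts. The other 36 combinations did not pass the filter on low counts; Gm7967 in oligodendrocyte precursors, for example, had 0 UMIs in both Setdb1-CK-cKO libraries and 1 and 2 UMIs in Wildtype libraries.

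In excitatory neurons, the best sampled class with 5541 and 6954 Setdb1-CK-cKO nuclei and 6480 and 6967 Wildtype nuclei, Gmnn measured 10.6 and 14.1 CPM in Setdb1-CK-cKO nuclei, against 3.20 and 4.10 CPM in Wildtype nuclei (log2 fold change 1.76 ± 0.19). Gm48619 measured 20.6 and 31.7 CPM, against 9.18 and 9.87 CPM (1.46 ± 0.19), and Def8 17.0 and 19.5 CPM, against 15.5 and 13.4 CPM (0.34 ± 0.13). Def8 in excitatory neurons thus had the smallest log2 fold change of the 12. Slco1a5 had 7 and 13 UMIs in Setdb1-CK-cKO excitatory neurons, against 0 and 3 in Wildtype ones. Vmn2r78 had 0 and 15 UMIs against 0 and 0, so its excitatory signal came from Setdb1-CK-cKO replicate 2 alone. Gm7967 had 18 and 16 UMIs against 4 and 3 (2.42 ± 0.48), at levels below 1 CPM in all 4 libraries.

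The fitted genes were also higher in inhibitory neurons and oligodendrocytes. Gm48619 measured 10.9 and 18.3 CPM in Setdb1-CK-cKO inhibitory neurons, against 5.59 and 7.79 CPM in Wildtype inhibitory neurons (1.13 ± 0.29). In inhibitory neurons Gmnn measured 7.91 and 14.3 CPM in Setdb1-CK-cKO nuclei, against 2.43 and 3.31 CPM in Wildtype nuclei (1.94 ± 0.37), and Def8 24.5 and 34.4 CPM, against 16.8 CPM in both Wildtype libraries (0.82 ± 0.19). Vmn2r78 had 4 and 8 UMIs there, against 0 and 0. In oligodendrocytes Gm48619 measured 18.6 and 20.5 CPM, against 6.69 and 8.46 CPM (1.36 ± 0.32), Gmnn 11.5 and 11.4 CPM, against 4.3 and 3.98 CPM (1.45 ± 0.41), and Def8 30.8 and 40.3 CPM, against 19.6 and 18.4 CPM (0.89 ± 0.23). Def8 in oligodendrocyte precursors measured 57.9 and 35.2 CPM, against 29.6 and 28.9 CPM (0.65 ± 0.34), and in microglia 30.7 and 24.0 CPM, against 19.2 and 4.28 CPM (1.19 ± 0.56). The microglial value was 2.60 without Wildtype replicate 1 and 0.51 without Wildtype replicate 2, that of precursors 0.25 without Setdb1-CK-cKO replicate 1, and that of Gm48619 in inhibitory neurons 0.70 without Setdb1-CK-cKO replicate 2. These sums alone cannot tell fewer positive nuclei from less RNA per nucleus. Counted by nucleus, Def8 was lower in both respects in neurons and oligodendrocytes than in astrocytes of the Setdb1-CK-cKO libraries. Astrocytes had 30.9% and 39.1% positive nuclei, at 4.11 and 2.51 UMIs per positive nucleus. Excitatory neurons had 7.002% and 6.46%, at 1.09 and 1.06 UMIs, and inhibitory neurons 8.81% and 9.13%, at 1.07 and 1.17. Oligodendrocytes had 3.15% and 3.34%, at 1.09 and 1.15. Depth differed between the classes, and its part was not tested.

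The genes did not keep 1 ratio to each other across classes. Per 100 Def8 UMIs, Setdb1-CK-cKO astrocytes had 3.46 and 6.05 Gmnn UMIs, Setdb1-CK-cKO oligodendrocytes 37.5 and 28.3, inhibitory neurons 32.2 and 41.5, and excitatory neurons 62.5 and 72.2. Gm48619 had 70.5 and 106 UMIs per 100 Def8 UMIs in Setdb1-CK-cKO astrocytes, 121 and 163 in excitatory neurons, 44.4 and 53.3 in inhibitory neurons, 60.4 and 50.9 in oligodendrocytes and 20 and 65 in oligodendrocyte precursors of the same libraries. Its ratio was thus above that of astrocytes in excitatory neurons and, as a point value, below it in the other 3 classes. Oligodendrocyte ratios rest on 29 and 27 Gm48619 UMIs over 48 and 53 Def8 UMIs. Those of precursors rest on 6 and 13 over 30 and 20, with up to 7 UMIs of either gene from 1 nucleus. No intervals were computed, so the order of these 3 classes and astrocytes is not read. Wildtype excitatory neurons had 20.7 and 30.5 Gmnn UMIs per 100 Def8 UMIs, and Wildtype astrocytes 15.4 and 17.4 on 4 Gmnn UMIs each. The part of free RNA in the values outside astrocytes was not tested.

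Likeness across the 36 sums of class and library (9 classes, 4 libraries) was measured as Pearson's r of log2(CPM + 1) over 20559 genes, as a description. Among the listed genes r was highest for Slco1a5 and Vmn2r78 (0.77), Gm48619 and Vmn2r78 (0.74) and Def8 and Vmn2r78 (0.73), and lowest for Def8 and Gmnn (0.10). Gm7967 was most like genes of astrocytes in general: Prdm16os (0.90), F730035M05Rik (0.89) and Ucp3 (0.84), the first of which measured 44.0 and 44.1 CPM in Setdb1-CK-cKO astrocytes and 50.3 and 51.9 CPM in Wildtype astrocytes. Gmnn was most like Nat9 (0.72), Zmym6 (0.71) and Mrpl36 (0.69), and Def8 most like Vmn2r78, Acat2 (0.72) and 4930401A07Rik (0.70). All 36 sums weigh alike in r, sparse ones included. Gmnn, for example, had 89.1 CPM on 5 UMIs in mural nuclei of Setdb1-CK-cKO replicate 2. In endothelial nuclei of Setdb1-CK-cKO replicate 1 it had 84.0 CPM on 2 UMIs, where Def8 had 0. Slco1a5 and Vmn2r78 had the same 3 genes nearest, Ghrhr, A330087D11Rik and 4930401A07Rik, which had at most 2.10 CPM in Setdb1-CK-cKO astrocytes and 0 in Wildtype astrocytes. Gm48619 was nearest to Olfr1338 (0.76), Ghrhr (0.75) and A330087D11Rik (0.75), which also rest on 1 or 2 UMIs per library.

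The 3 nearest annotated genes on either side of each, chosen by position, made 36 neighbours. Of these 14 had enough UMIs for the test and 0 passed at an edgeR adjusted p under 0.05, where 1.5% of all genes tested passed, and by the DESeq2 Wald test 0 passed as well. At an unadjusted p under 0.05 there were 3: Afg3l1 beside Def8 (35.0 and 43.0 CPM in Setdb1-CK-cKO astrocytes, 54.1 and 60.8 CPM in Wildtype astrocytes), Klhl29 beside Gm48619 (81.1 and 75.5 CPM, against 114 and 103 CPM) and Folh1 beside Vmn2r78 (59.1 and 39.9 CPM, against 95.4 and 54.9 CPM). All 3 were lower in Setdb1-CK-cKO astrocytes, with adjusted p of 0.265, 0.215 and 0.274 by edgeR (n = 2 per genotype). With the replicate number as a block Klhl29 and Folh1 passed (edgeR adjusted p = 0.0427 and 0.0252). Folh1 also passed without Setdb1-CK-cKO replicate 1 and without Wildtype replicate 2, with log2 fold changes of -0.93 and -0.95 where all libraries gave -0.61. Log2 fold changes of the 14 ran from -0.61 to 0.42, with a median of 0.06 beside 0.01 over all genes tested.

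Around Def8 most neighbours could be measured. Tubb3, a tubulin gene that ends 1.51 kb before Def8 on the same strand, measured 110 and 128 CPM in Setdb1-CK-cKO astrocytes, against 94.8 and 117 CPM in Wildtype astrocytes (0.17 ± 0.17). Tcf25 measured 492 and 438 CPM, against 458 and 431 CPM (0.07 ± 0.15), Gas8 35.0 and 65.03 CPM, against 40.6 and 33.4 CPM (0.42 ± 0.26), and Dbndd1 8.01 and 13.6 CPM, against 13.5 and 5.93 CPM (0.11 ± 0.47). Mc1r, the melanocortin receptor gene, was at 0 UMIs. Beside Gmnn, Acot13 measured 79.1 and 78.7 CPM, against 54.1 and 67.5 CPM (0.38 ± 0.20), Ripor2 39.0 and 36.7 CPM, against 32.2 and 38.6 CPM (0.10 ± 0.24), and BC005537 50.04 and 37.8 CPM, against 43.8 and 45.98 CPM (-0.03 ± 0.23). Armh2, Cmah and Tdp2 had too few UMIs.

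Slco1a5 lies in a row of related transporter genes. Slco1a6, 25.7 kb away, its antisense gene Gm20400 and Gm6614 were at 0 UMIs in all 4 astrocyte sums. On its other side Pyroxd1, Recql and Golt1b had log2 fold changes of 0.05 ± 0.29, 0.39 ± 0.37 and -0.28 ± 0.38. Vmn2r77, next to Vmn2r78, was at 0 UMIs, and Vmn2r79, Olfr292, Nox4 and Tyr had 4 or fewer UMIs in all. Gm7967 is flanked by another transporter gene, Slco6d1, which with Gm29461, 1810006J02Rik and Gm20268 was at 0 UMIs, while Gm28187 had 1 and Cntnap5b had a log2 fold change of -0.10 ± 0.31. The nearest neighbour of Gm48619, 1700101O22Rik, lies 569 kb away, and of Gm32442, 2810032G03Rik, 1700101O22Rik, Gm32828 and Gm48633 none had enough UMIs for the test.

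**Figure D5:**
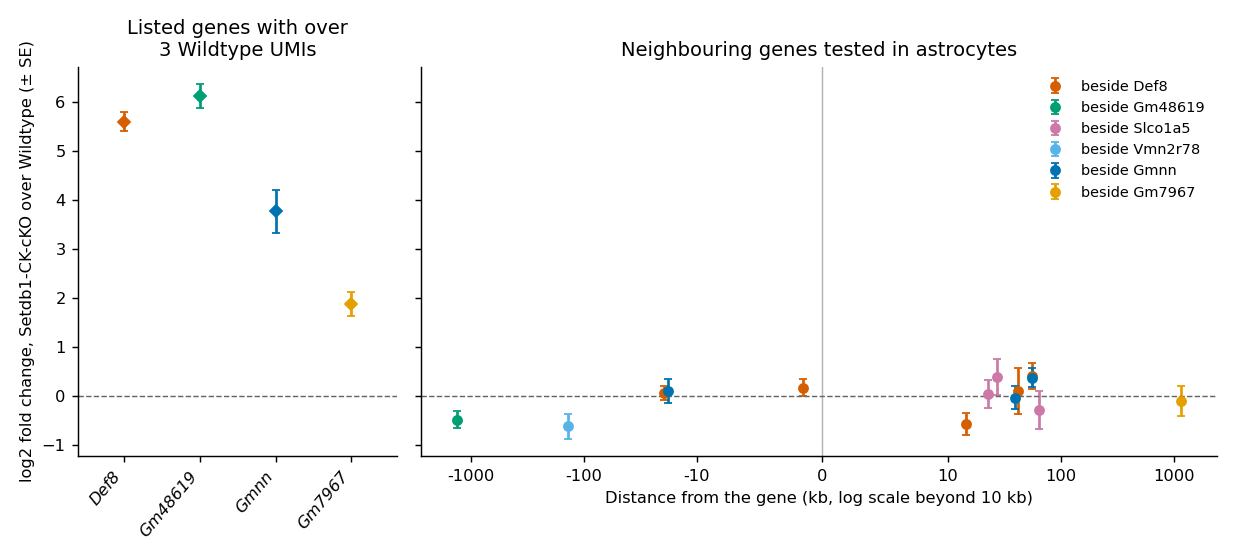
Log2 fold change in astrocytes, Setdb1-CK-cKO over Wildtype, ± SE, for the 4 listed genes with more than 3 Wildtype UMIs (left) and for the 14 tested neighbours by their distance in kb (right; negative is the lower coordinate side). Neighbours lie between -0.61 and 0.42, while the 4 listed genes run from 1.89 to 6.12.

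Genes that work with the listed ones, taken as lists that were written with earlier results of these data known, gave 10 calls among 48 tested genes in astrocytes. Of these, 8 were in a list chosen on these samples, and the other lists gave 2 among 37 (5.41%), where 1.5% of all genes tested were called. Both of those calls were lost in at least 6 alternatives, as given below. Of the partners of Def8 in lysosome positioning and Rab7 binding, 7 of 8 were tested and 0 passed: Plekhm2 measured 116 and 95.4 CPM in Setdb1-CK-cKO astrocytes, against 106 and 131 CPM in Wildtype astrocytes, and Rab7 66.1 and 76.6 CPM, against 80.6 and 58.6 CPM. The list's median log2 fold change was -0.09. Of replication licensing genes, 9 of 20 were tested and 0 passed, with a median of 0.05; Orc3 measured 114 and 106 CPM against 112 and 100 CPM, Orc4 60.1 and 53.5 CPM against 56.7 and 61.5 CPM, and Cdt1, the protein partner of geminin, had 0 and 1 UMIs against 1 and 0. Of 16 proliferation genes 2 were tested and 0 passed, Ccne2 at 29.0 and 19.9 CPM against 16.8 and 15.6 CPM and Ccnb1 at 14.0 and 17.8 CPM against 7.73 and 13.3 CPM. Mki67 had 1 and 3 UMIs in Setdb1-CK-cKO astrocytes and 3 in each Wildtype library.

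Of the organic anion transporters related to Slco1a5, 3 of 13 counted genes were tested, 0 rose and 1 fell. Slco1b2, an uptake transporter known from liver, fell to 23.0 and 19.9 CPM in Setdb1-CK-cKO astrocytes, against 41.9 and 54.9 CPM in Wildtype astrocytes (log2 fold change -1.16 ± 0.26, adjusted p = 0.0258 by edgeR with 2 animals of each genotype). Its call was lost in 6 of 12 alternatives, at adjusted p up to 0.366, among them those without Setdb1-CK-cKO replicate 2 and without Wildtype replicate 2. Slco1c1, the thyroxine transporter gene of astrocytes, measured 338 and 296 CPM against 394 and 400 CPM without passing the test (-0.32 ± 0.15, adjusted p = 0.338 by edgeR). Of 123 other type 2 vomeronasal receptor genes 28 had any UMI in astrocytes, with summed counts of 40 and 40 UMIs in Setdb1-CK-cKO astrocytes and 49 and 60 UMIs in Wildtype astrocytes, and 0 could be tested.

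The 12 astrocyte identity genes were all tested and 0 passed, with a median log2 fold change of -0.03. That count was 2 without Setdb1-CK-cKO replicate 1, 2 without Wildtype replicate 2, 2 with no filter on low counts, 1 without nuclei holding RNA of other classes and 3 with the replicate number as a block. Slc1a3 had the smallest adjusted p among them, at 1680 and 1372 CPM in Setdb1-CK-cKO astrocytes and 2248 and 1948 CPM in Wildtype astrocytes (-0.46 ± 0.12, edgeR adjusted p = 0.0609). Of 16 genes of reactive astrocytes 4 were tested and 1 rose: Ggta1, a galactosyltransferase gene, to 22.0 and 19.9 CPM in Setdb1-CK-cKO astrocytes, against 6.45 and 7.42 CPM in Wildtype astrocytes (1.59 ± 0.39, edgeR adjusted p = 0.0384). This call was lost in 7 of 11 alternatives, each of those that leave out a library among them. Gfap, the intermediate filament gene that marks reactive astrocytes, measured 36.0 and 45.1 CPM against 21.3 and 18.5 CPM without passing the test (1.02 ± 0.27, adjusted p = 0.059 by edgeR). Of the 12 genes that an earlier account of these data found higher in excitatory neurons, 11 were tested in astrocytes and 8 rose. That list was chosen on these samples and is no independent evidence of its direction. By smallest p these were Gm11884 (156 and 246 CPM, against 0 and 0), Rnf17 (51.0 and 56.6 CPM, against 3.22 and 2.97), Bglap3 (37.0 and 56.6 CPM, against 0.645 and 2.22) and 3222401L13Rik (114 and 181 CPM, against 45.8 and 40.8), with edgeR adjusted p of 3.71e-11, 2.89e-07, 1.21e-06 and 4.01e-05.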

How the data were processed

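Nuclei of mouse cortex were sequenced as 10x 3′ libraries, 1 per animal, from 2 Setdb1-CK-cKO and 2 Wildtype animals. The deposited values are raw UMI counts per gene and barcode; the submitters' processing notes name Cell Ranger 7.1.0 and mm10, and whether counting used strand or introns is not given in the sources used here. Libraries held 38503740 and 38314394 UMIs (Setdb1-CK-cKO) and 45605971 and 42780840 UMIs (Wildtype). Barcodes below 500 UMIs or 300 genes, or above 5% mitochondrial UMIs, were dropped, 2464 doublets called by Scrublet were removed, and nuclei were clustered with scanpy 1.11.5 (2000 variable genes without the 6 genes, 30 components, 15 neighbours, resolution 1) and named from marker genes. The 6 genes, the markers and the lists were chosen with earlier results of these data known.

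Counts were summed per class and library (at least 30 nuclei in each) and fitted by genotype with edgeR 4.0.16 (TMM, low-count filter at 10, quasi-likelihood test, Benjamini-Hochberg adjustment over all genes of the class, threshold 0.05). Per the labels each genotype has 1 male and 1 female, hence separate animals, although sex-linked RNA went against the listed sex of both Setdb1-CK-cKO animals. The p-values measure the spread between these libraries. Shares have exact Clopper-Pearson 95% intervals, and these and the floor of 3 UMIs cover counting error only. Sequence matches used BLAST 2.17.0; of the 32285 gene IDs, 32235 were found in GENCODE vM21. The code was also tested on simulated data. Named genes were the 6, their 3 neighbours on either side, up to 4 called genes per direction of each list or else its 2 highest, the 3 most alike in pattern, and the 10 with the largest difference in detection between nuclei with at least 2 of the genes and with none. Slc1a3, Slc4a4, Slco1c1, Gfap, Cdt1 and Mki67 were named after their values were seen. Alternatives were other normalization, filters, tools and cell selections, and leaving out each library.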

Additional observations from a re-analysis of the deposited data

Results flagged for a closer look

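Signal of the listed genes also appeared in nuclei that no comparison above uses. An unnamed cluster of 111 nuclei carried markers of both astrocytes and excitatory neurons, at a median depth 2.07 times that of its libraries. Def8 was detected there in 23 of 61 Setdb1-CK-cKO nuclei, or 37.7% (exact 95% interval 25.6 to 51.0%), against 5 of 50 Wildtype nuclei, or 10.0%. By library this was 1 of 7 and 22 of 54 Setdb1-CK-cKO nuclei, against 2 of 17 and 3 of 33 Wildtype nuclei. The Def8 difference thus rested on Setdb1-CK-cKO replicate 2, and the pooled intervals do not cover spread between animals. Gm48619 was detected in 21 of 61 Setdb1-CK-cKO nuclei, or 34.4% (22.7 to 47.7%), against 1 of 50 Wildtype nuclei, or 2.0%. Its numbers by library were 2 of 7 and 19 of 54, against 0 of 17 and 1 of 33. Slco1a5 and Vmn2r78 were each in 1 of 7 and 8 of 54 Setdb1-CK-cKO nuclei, against 0 of 17 and 0 of 33 Wildtype ones. Gm7967 was in 1 of 7 and 7 of 54, against 1 of 17 and 0 of 33. Gmnn was in 0 of 7 and 3 of 54, against 0 of 17 and 0 of 33. Of the 61 Setdb1-CK-cKO nuclei 54 came from replicate 2 and 7 from replicate 1. Another unnamed cluster, of 88 nuclei, carried markers of astrocytes and oligodendrocytes. There Def8 was in 1 of 2 and 4 of 5 Setdb1-CK-cKO nuclei, against 0 of 48 and 1 of 33 Wildtype nuclei. Gm48619 had the same numbers, while Gm7967 was in 0 of 2 and 1 of 5, against 1 of 48 and 4 of 33. The nuclei of both clusters had passed the doublet calls of Scrublet, and whether they are doublets that it missed was not tested.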

How the results depend on the processing

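Of 597 values computed under alternatives, many of them counts or shares with no sign, 477 stayed within the limits set for their kind, 94 moved past them, 22 lost a call and 4 gained one. The number of genes called in astrocytes did depend on the setting: 110 higher and 64 lower became 219 and 142 with no filter on low counts, 31 and 12 with DESeq2's Wald test, 31 and 3 with the listed genes among the variable genes, and 29 and 1 with the mixed cluster added, an alternative chosen after seeing the data. Leaving out 1 library gave 59 (without Setdb1-CK-cKO replicate 2) to 315 (without Setdb1-CK-cKO replicate 1) higher and 61 to 157 lower, and 67 higher without Wildtype replicate 1. Called neighbours numbered 0 to 1 and called list genes 7 to 14 when 1 library was left out; list calls were 17 with no filter. The causes were not tested.

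With the replicate number as a block, 529 genes were higher and 307 lower, 2 neighbours (Klhl29 and Folh1) and 17 list genes were called. The labels share numbers but not a source between genotypes, and deviations of same-numbered astrocyte sums correlated at r = 0.143 over 11631 genes, so the numbers are not read as pairs. Same-numbered libraries did share the pattern of Xist and Uty, against the listed sexes. The block thus also separates the libraries by sex-linked RNA, which the main fit, by genotype alone, leaves out. How much of the change in calls goes with sex was not tested.

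The log2 fold change of Def8, 5.60, was 5.57 with no filter, 5.44 with the listed genes among the variable genes, 5.44 with the mixed cluster added and 5.35 without nuclei holding RNA of other classes. For Slco1a5, with a ratio of 157, the same selection left 0 Wildtype UMIs. It gave 41.1-fold against a floor of 3 UMIs, which does not show a smaller difference. The astrocytes then numbered 334 and 431 in Setdb1-CK-cKO libraries and 519 and 422 in Wildtype libraries. Leaving out 1 library gave 5.57 to 5.61 for Def8, 3.33 to 4.11 for Gmnn and 1.55 to 2.15 for Gm7967. Counting only nuclei with at least 2 UMIs lowered the mean Setdb1-CK-cKO share to 25.6% for Def8, 22.8% for Gm48619, 3.15% for Slco1a5, 1.31% for Vmn2r78, 0.202% for Gmnn and 2.32% for Gm7967, and the share with any pair to 18.6%; thinning lowered Gm7967 to 7.78%. All 12 fits in other classes stayed positive under every alternative run (0.23 to 2.61). These 12 had passed the low-count filter, which the Setdb1-CK-cKO libraries alone can meet. Depth limits the rarer genes, which rest on 1 UMI in most positive nuclei.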
